A study of Mus musculus with 23 samples.

Results

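CTCF individual-nucleotide UV crosslinking and immunoprecipitation (iCLIP2) was run in mouse E14 embryonic stem cells (ESC) and neural progenitor cells (NPC), and 8591 positions recurred between its ESC and NPC controls that had never been crosslinked. They are the single-nucleotide sites of the ESC noXL list (noXL, no UV crosslinking) that had a site of the NPC noXL list within 5 nt on the same strand. They were selected on their position in both noXL lists, out of 158968 ESC noXL sites and 1346716 sites in the 6 lists of the study on chromosomes 1 to 19, X and Y. They made up 5.40% of the ESC noXL sites, and the remaining 150377 are called the other ESC noXL sites below.

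In all 6 groups both endogenous CTCF alleles carried the AID2 degron, and cells were held for 24 hours in 1 µM 5-Ph-IAA, which degrades the tagged protein, with 1 µg/mL doxycycline, which induces a Flag-Halo-tagged rescue CTCF that was then immunoprecipitated through its Flag tag. The rescue was wild type (WT) in both noXL groups and in the ESC WT and NPC WT groups, and it lacked zinc finger 1 in the ESC ZF1 and NPC ZF1 groups. Cells of these 4 groups received 400 mJ/cm2 of 254 nm light. NPCs were differentiated for 2 days. Each group had 4 libraries, except NPC WT with 3, and the libraries of a group were merged before sites were called, so that each group is 1 pooled list with no replicate error. No unexposed cells with the ZF1 rescue were among the groups.

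In iCLIP, reverse transcription stops at the peptide left on a crosslinked base, so a read begins 1 nt downstream of the contact. A cDNA can also end where its RNA template ends, and a control without UV records such ends together with RNA that stayed with the beads for other reasons. Small nucleolar RNAs (snoRNAs) guide chemical modification of ribosomal RNA and are mostly cut out of the introns of host genes, small nuclear RNAs (snRNAs) are the RNA parts of the spliceosome, and both are short, abundant and have defined 5′ ends. The sites were called with PureCLIP, whose score is higher where reads start more often at a base than the model expects.

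The sequences below are 30-nt windows of the mm10 (GRCm38) genome on the strand of the RNA, with the site as the last lower-case base and the 14 bases in capitals where the reads begin. The first set shows high-scoring recurrent positions at small RNAs, whose reads begin at or next to the 5′ end of the RNA.

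Snord14e in Hspa8, chr9:40804731-40804760, plus strand: aaaagggctgagagggGTCACAATGATGAT
Snord14d in Hspa8, chr9:40803979-40804008, plus strand: agcccagggaagttccTCGCTGTGATGATG
Snord14c in Hspa8, chr9:40803567-40803596, plus strand: acaagtcctgtaagatTCGCTGTGATGATG
Snord47 in Gas5, chr1:161038066-161038095, plus strand: ttgtaatatagcttgtAACCAGTGATGTGA
Snord13, chr8:31149955-31149984, minus strand: agctaacagtaaggccGATCCTTTCTGGTT
Gm22513 snRNA gene, chr12:54696766-54696795, plus strand: acggcactcgcaactcATACTTACCTGGCA
Rnu12 snRNA gene, chr15:83149628-83149657, plus strand: cgtagacacgttcctcATGCCTTAAACTTA

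The second set shows reads that begin at the start of an mRNA or at the first base of an intron, where the capitals open with the GT of a 5′ splice site.

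Rps2 start, chr17:24720093-24720122, plus strand: ttccgcggcgcctcccTCTTCTTCTTCTTC
Rpl13a start, chr7:45128724-45128753, minus strand: tgcgacaagacctcctCCTTTCCCAGGCGG
Srsf2 intron, chr11:116852007-116852036, minus strand: tcttcctaagaaaatgGTAATGTCTGCGGG
Ddx5 intron, chr11:106783945-106783974, minus strand: gcctccagagggctagGTTAGTACAAACTC
Eef1g intron, chr19:8969972-8970001, plus strand: gtggctctataaacagGTAAGGTTTATATC

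The third set shows genomic places whose reads begin with letters of the study's own amplification primers, followed by the Rspo1 coding exon site, whose reads begin with letters of the ligated 3′ adapter.

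Intergenic, chr15:82768210-82768239, plus strand: taaaattcagcacagtGCTCTTCCGATCTA
Intergenic, chr2:45838839-45838868, plus strand: tagtaaaatatttcaaGCTCTTCCGATCTG
Antisense, chr9:94873126-94873155, minus strand: tcttacctttctggttGCTCTTCCGATCTG
Gm30228 intron, chr10:27762438-27762467, minus strand: aaaagaaaatggcagaGCTCTTCCGATCTC
Rspo1 coding exon, chr4:125007643-125007672, plus strand: tgcggtttccggaaggGATCGGAAGAGCGG

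The same base was the most frequent distance between the lists. Of the 8591 recurrent sites, 3762 had an NPC noXL site at the same base 1595 at a distance of 1 nt and 4829 in all at 1 to 5 nt. When the NPC noXL list was moved by 500 or 1000 nt in either direction, 1365 ESC noXL sites on average met the same rule, or 0.859% of the list, so that the observed count was 6.29 times that level. At the same base the ratio was 30.0, with 125 sites after the shifts. The median ESC noXL score was 21.2 for sites matched at the same base, 6.40 at 1 nt and 4.85 at 2 nt. Just inside the limit, 758 sites had their nearest NPC noXL site 5 nt away, with a median score of 4.45 and a site in ESC WT for 28.8% of them. Just outside it, the 658 sites at 6 nt had a median score of 3.64 and a return in ESC WT of 25.8%. The sites at the 5 nt edge thus resembled those beyond it more than they resembled the exact matches. The recurrent sites formed 7311 runs with gaps of up to 8 nt, 6175 of them a single base, and the longest held 12 sites. Only 103 recurrent sites had a 31-nt sequence that occurred more than once among the ESC noXL sites (1.20%, against 0.810% of the other sites).

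Small RNA genes held the densest recurrence. Within 5 nt of an annotated small RNA lay 703 recurrent sites (8.18%, 95% Wilson interval 7.62 to 8.78) and 351 other sites (0.233%, 0.210 to 0.259), a difference of 7.95 percentage points (95% Newcombe interval 7.39 to 8.55). These intervals, here and below, cover counting error only, and sites of 1 RNA are not independent. Of the 419 ESC noXL sites at snoRNAs, 374 recurred (89.3%), spread over 220 snoRNA genes. At snRNAs 141 of 218 sites recurred (64.7%), at tRNAs 115 of 224 (51.3%), at small Cajal body RNAs 24 of 30 (80.0%) and at microRNA genes 32 of 97 (33.0%).

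The reads at snoRNAs and snRNAs mostly began at the 5′ end of the annotated gene. At snoRNAs the read start fell on the annotated first base in 110 recurrent sites and 1 nt before it in 92, and 308 of the 374 sites (82.4%) were within 2 nt. The box C motif of C/D-type snoRNAs, which lies close to the 5′ end, was searched as TGATGA in the 15 nt after the site and was found at 158 of the 374 snoRNA sites (42.2%), at 41 of the 7888 recurrent sites away from small RNAs (0.520%) and at 0.445% of the other ESC noXL sites. Its reverse complement was found at none of the snoRNA sites and at 18 recurrent sites in all. At snRNAs 92 of 141 read starts were on the first base itself. tRNA genes differed: 64 of 115 read starts lay 3 to 5 nt upstream of the mature tRNA, in the leader that RNase P removes, 9 lay within 2 nt of the first base and 41 lay more than 8 nt inside the gene. At microRNA genes, annotated as the longer hairpin, 27 of 32 read starts lay more than 8 nt inside and 3 lay within 2 nt of the first base. Since sites up to 5 nt from a gene were counted, leaders read from further upstream are not in these numbers.

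**Figure D1:**
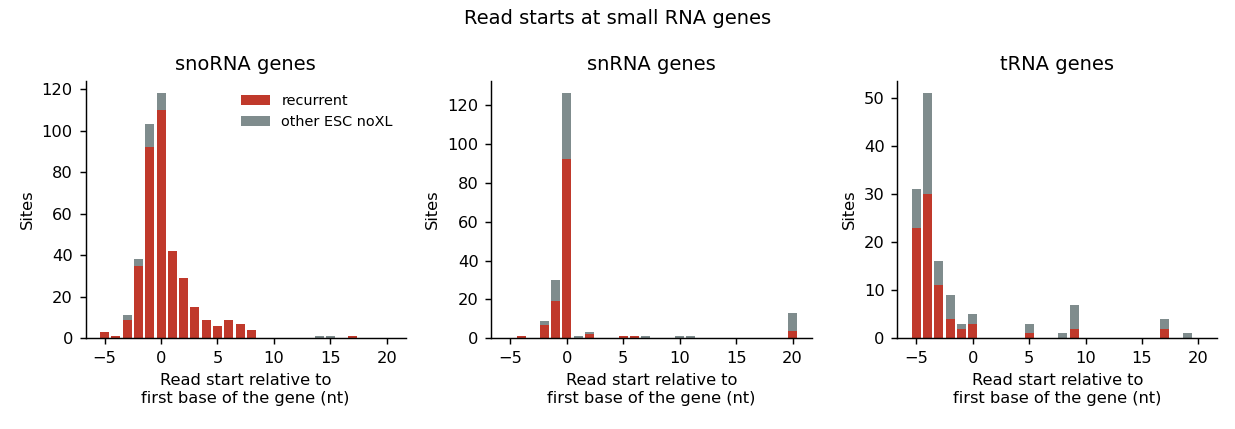
Number of ESC noXL sites (y axis) by the position of the read start relative to the first base of the annotated gene in nt (x axis), for snoRNA, snRNA and tRNA genes, with recurrent sites in red and other sites stacked in grey. snoRNA and snRNA reads began at or next to the first base (110 and 92 recurrent sites on it), and tRNA reads mostly 3 to 5 nt before it (64 recurrent sites).

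Single small RNAs carried some of the highest scores. At Snord14e, 1 of several snoRNAs in the introns of the heat shock protein gene Hspa8, the score was 708, the highest value written for any site, in ESC noXL, NPC noXL, ESC WT and ESC ZF1, 580 in NPC WT and 211 in NPC ZF1. Snord14d had 692 in ESC noXL and 708 in NPC noXL, and its lowest UV score was 332 in NPC ZF1. Snord80, in the snoRNA host Gas5, had 703 and 493 without UV and 202 to 708 with UV. Rnu12, the RNA of the minor spliceosome's U12 particle, had 546 and 708 without UV and 409 to 708 with UV. Terc, the RNA template of telomerase, had 177 and 59.3 without UV and 46.7 to 198 with UV. Each of these 5 positions thus had a site within 5 nt in all 6 lists. Not all small RNAs with the score of 708 in ESC noXL did. Snord13 and Rmrp had a site in 1 UV list, Rnu3a and Snord2 in 2, and Snord118 and Rny3 in 3. At Snord14e the NPC noXL site was 1 nt away, and the next base, also a recurrent site, scored 631 in NPC ZF1. Scores are not scaled to the depth of a list, so no test was made between lists.

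Transcript starts were hit often as well. The read start lay within 2 nt of an annotated transcript start, small RNAs included, in 1344 recurrent sites (15.6%, 14.9 to 16.4) and in 2092 other sites (1.39%, 1.33 to 1.45), and within 50 nt in 31.6% against 6.91%. The difference within 2 nt was 14.3 percentage points (13.5 to 15.0). The most frequent positions were 1 nt upstream of the annotated start (548 recurrent sites) and the start itself (428). With small RNAs set aside, 875 recurrent sites within 2 nt of a start remained, 685 of them in 561 genes and 190 just outside any gene body on the strand. The reads began with cytidine at 64.5% of the 423 such sites 1 nt upstream, against 62.0% of the 835 others. Ribosomal protein mRNAs open with a run of pyrimidines, the 5′ TOP motif, and of the 43 recurrent start sites in their genes 40 began with 5 pyrimidines (93.0%). Over all 875 start sites 12.0% did so, over the 2003 other start sites 3.99%. Rps2, a protein of the small ribosomal subunit, scored 496 and 196 in ESC and NPC noXL and 172 to 400 in the UV lists. Rpl13a, of the large subunit, scored 352 and 183 without UV and 332 to 468 with UV.

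Intron starts were hit by more recurrent than other sites in proportion, while the first base of later exons was not. The read start fell exactly on the first base of an annotated intron in 279 recurrent sites (3.25%) and 2482 other sites (1.65%), a difference of 1.60 percentage points (1.24 to 2.00). The profile was a single point: 19 recurrent sites lay 1 nt before it and 5 lay 1 nt after it. The first base of a later exon was hit by 11 recurrent sites (0.128%) and by 360 others (0.239%), a difference of -0.111 points (-0.174 to -0.00756), although 1 nt before that base the shares were 0.338% and 0.312% and 1 nt after it 0.221% and 0.192%. At these intron starts the base under the site is the last base of the exon, and it was guanosine in 80.3% of the recurrent and 79.2% of the other sites. The splicing factor gene Srsf2 scored 58.0 in ESC noXL, 101 in NPC noXL, 45.3 in ESC WT, 63.2 in ESC ZF1 and 20.6 in NPC WT, with no NPC ZF1 site within 5 nt. The helicase gene Ddx5 scored 46.0 and 91.6 without UV, 74.5 in ESC WT and 45.7 in ESC ZF1, with no NPC WT site within 5 nt and 0.624 in NPC ZF1. Taken as 1 quantity, a read start on the first base of a transcript, intron or later exon was found for 8.36% of recurrent and 2.19% of other sites, a difference of 6.17 percentage points (5.60 to 6.78), which was 12.4 with recurrence at the same position and 2.05 within 50 nt.

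**Figure D2:**
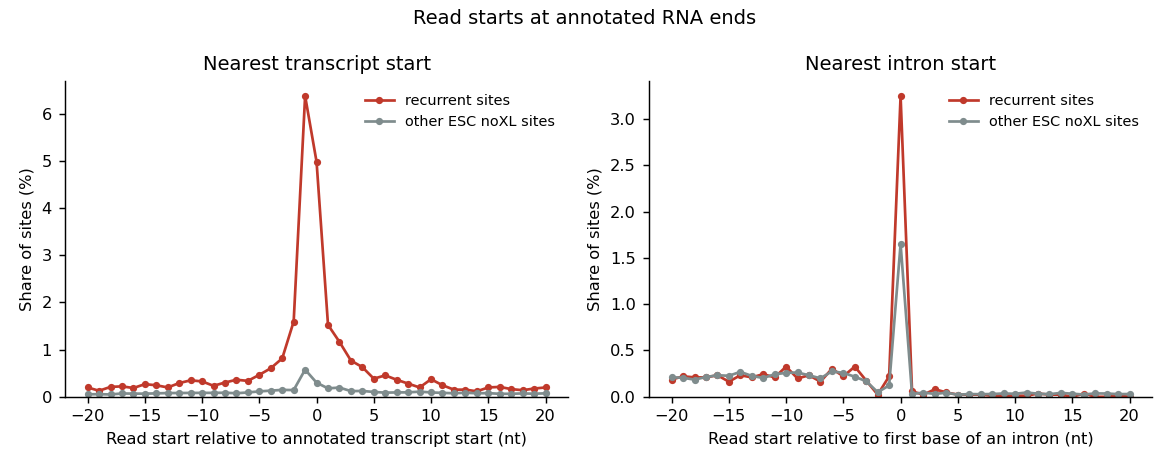
Share of sites in percent (y axis) by the position of the read start relative to the nearest annotated transcript start (left) or the first base of the nearest intron (right) in nt (x axis), for the 8591 recurrent (red) and 150377 other ESC noXL sites (grey). Recurrent sites peaked 1 nt before and on the transcript start (548 and 428 sites) and on the first base of introns alone (279 sites).

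By transcript part, recurrent sites moved away from introns. Of the recurrent sites 19.9% were intronic, against 39.1% of the others, a difference of -19.3 percentage points (-20.2 to -18.4). 5′ UTRs held 20.1% against 5.45% (14.6 points, 13.8 to 15.5), intergenic sequence 12.3% against 3.56% and the antisense strand of genes 3.64% against 0.949%. Parts were read at the site, so reads on the first base of a gene can have an intergenic or antisense site. With small RNAs and places within 50 nt of a transcript start set apart, intergenic and antisense sites together held 9.03% against 3.70%. Non-coding exons held 7.26% against 5.48% and 3′ UTRs 9.79% against 13.1%. Coding exons held 27.1% against 32.3%, a difference of -5.27 points (-6.23 to -4.29). This last difference depended on the comparison: it was -1.26 points (-2.53 to 0.0152) when the other sites were weighted to the genes of the recurrent ones, 9.25 points when recurrence was counted within 50 nt, and 5.31 points (4.01 to 6.63) when sites near transcript starts and small RNAs were left out.

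**Figure D3:**
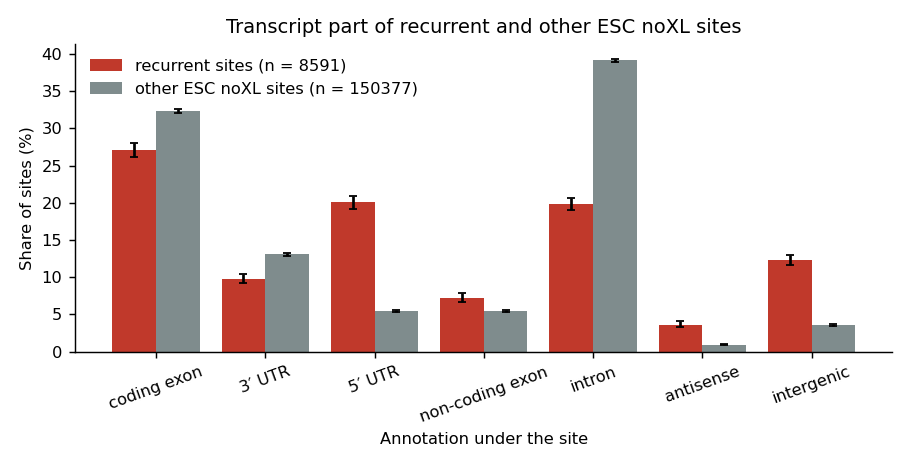
Share of sites in percent (y axis) on each annotated transcript part (x axis) for recurrent (red) and other ESC noXL sites (grey), with 95% Wilson intervals as error bars. 5′ UTR, antisense and intergenic shares were higher among recurrent sites (20.1%, 3.64% and 12.3%), and the intron share was lower (19.9% against 39.1%).

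The base under the recurrent sites was guanosine more often than uridine. Guanosine held 30.4% of the recurrent and 21.2% of the other sites, a difference of 9.18 percentage points (8.20 to 10.2). Uridine, the base that UV light crosslinks most readily, held 25.0% and 28.5%, a difference of -3.47 points (-4.40 to -2.51), adenosine 21.3% and 28.7%, and cytidine 23.3% and 21.6%. These differences were not confined to the site. Guanosine held 30.6% and 24.6% at 15 nt before it, and 31.2% and 26.4% at 15 nt after it. Uridine held 23.4% and 27.7% at the former position, and 21.8% and 26.0% at the latter. The first base of the reads, 1 nt on, was cytidine in 21.3% against 14.8%, and the 15 nt after the site were 53.4% G or C on average against 47.6%. The share masked as repeats in the reference was 18.4% and 18.01%, a difference of 0.412 points whose interval held 0 (-0.417 to 1.27). Within the 1467 recurrent sites in introns that were neither at a small RNA, nor within 50 nt of a transcript start, nor on the first base of an intron, 46.1% were masked, against 30.3% of the 58201 others of that kind (15.7 points, 13.2 to 18.3), and 38.1% sat on guanosine, against 19.6%. Outside the masked repeats the guanosine share there was 23.8% against 18.4%.

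Some recurrent positions carried the letters of the library primers. The study's list of oligonucleotides holds 2 short amplification primers that end in the same 14 letters, and the start of each read was set against that end, a search chosen after these windows were read and therefore given without a test. Reads began with at least 10 of these letters at 90 recurrent sites (1.05%) and 21 other sites (0.0140%). GCTCTTCCGATCT, the longest stretch found, opened the reads at 17 recurrent sites and at 0 other sites. Counted from the read start, TCTTCCGATCT was the longest match at 41 and 7, and TCCGATCT at 0 and 7. On the 21 chromosomes the genome holds GCTCTTCCGATCT at 21 places, counting both strands. A place was counted as a site only where reads began on the first letter of its match. Reads that began inside a longer match are therefore not in the counts by place. Of these 21 places, 17 were sites in ESC noXL, all of them recurrent, and 20 in NPC noXL, 17 in ESC WT, 21 in ESC ZF1, 7 in NPC WT and 18 in NPC ZF1. Of the 68 places with 12 letters and no more, 20 were ESC noXL sites and 36 were ESC ZF1 sites, and of the 642 places with 10 letters 14 and 38 were. The share of places called thus fell as the match became shorter in both lists. Of the 90 recurrent sites, 57 were intergenic or antisense and 28 intronic, 79 were at the same base in NPC noXL, and 35 returned in ESC WT (38.9%), 62 in ESC ZF1 (68.9%), 19 in NPC WT (21.1%) and 38 in NPC ZF1 (42.2%). Of the 21 other sites with such reads 0, 3, 4 and 0 returned.

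Letters of the 3′ adapter were rarer. GATCGGAA, letters 2 to 9 of that adapter, was found in the 31-nt window of 20 recurrent sites (0.233%) and 19 others (0.0126%), and its reverse complement, which the primer end holds, in 96 and 44. Rspo1, a secreted activator of Wnt signalling, had such a site in a coding exon with the highest score of 708 in ESC noXL, NPC noXL and NPC WT, 180 in ESC WT, 514 in ESC ZF1 and 142 in NPC ZF1. What part the primers and the adapter played in these calls was not tested.

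The genes of the recurrent sites were many, and most held few. The 7220 genic recurrent sites lay in 3589 of the 9769 genes with an ESC noXL site, 1912 of them with 1 recurrent site and 257 with at least 5, and 4.50% of the recurrent sites lay in more than 1 gene of the strand. Protein-coding genes held 94.7% of the genic recurrent sites and 98.2% of the others. The remaining gene types held 5.32% against 1.84%, a difference of 3.48 points (2.98 to 4.03), which was 0.767 points (0.353 to 1.26) away from transcript starts and small RNAs and 0.482 with recurrence within 50 nt. Among them were 108 recurrent sites in processed transcripts, the type of many snoRNA hosts, 79 in lincRNAs and 55 in genes annotated as snoRNAs. Each site was given 1 gene, and within a transcript part protein-coding genes were preferred. A site at a snoRNA inside a protein-coding host could therefore count as protein-coding, and the 55 are not all of the 374 recurrent sites at snoRNAs. Gas5, a long noncoding RNA whose introns hold snoRNAs, had the most recurrent sites, 21 of its 22 ESC noXL sites, 18 of them at a small RNA and 3 at a transcript start, and all 21 returned in each of the 4 UV lists.

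The 9 genes that followed Gas5 in number were protein-coding genes with many ESC noXL sites, from 185 to 338. Cnot1, the scaffold of the CCR4-NOT deadenylase, had 20 of 248 sites, Kansl1, a subunit of a histone acetyltransferase complex, 20 of 263, Gm20388 17 of 204, the ubiquitin ligase gene Huwe1 17 of 338, the exocyst gene Exoc4 16 of 283, Mdn1, which acts in assembly of the large ribosomal subunit, 16 of 185, the ubiquitin ligase gene Trip12 16 of 275, Ankrd11 14 of 294 and Dst 14 of 209. In these 9 genes the recurrent share was 4.76% to 8.65%, beside 4.79% of all genic sites. Their recurrent sites were mostly in introns or exons away from transcript starts and small RNAs, 18 of 20 in introns at Kansl1 and 14 of 16 in exons at Mdn1. Their return with UV varied. At Kansl1 5 returned in ESC WT, 2 in ESC ZF1, 1 in NPC WT and 0 in NPC ZF1, and at Gm20388, 6 of whose recurrent sites also lay in another gene, 13, 13, 10 and 6 did.

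Among genes with at least 20 ESC noXL sites the highest recurrent shares belonged to genes with small RNAs inside them. After Gas5 (95.5%) came Nop56, a core protein of C/D snoRNA particles, with 12 of 20 sites (60.0%), Zfas1 with 9 of 20 (45.0%), 1810032O08Rik with 8 of 21 (38.1%) and Eif4a1, a translation initiation helicase, with 8 of 26 (30.8%). In each of the 5, small RNAs held more recurrent sites than any other class. Below that minimum, Malat1, an abundant nuclear RNA, had 6 of 7 sites recurrent, all in its exon, with a median ESC noXL score of 355, and all 6 returned in ESC WT, ESC ZF1 and NPC WT and 4 in NPC ZF1.

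Gene lists set this in order. In the snoRNA host genes 127 of 388 sites recurred (32.7%, median over genes 30.8%), 94 of them at small RNAs, with Snhg1 at 12 of 19 and Snhg12 at 9 of 11. In the cytosolic ribosomal protein genes 166 of 771 recurred (21.5%), 58 at small RNAs, 43 at and 36 near a transcript start, with Rpl7a at 9 of 13. Histone genes had 30 of 84 (35.7%), 18 of these in exons away from transcript starts, although the median over genes was 0. Abundant housekeeping mRNAs had 48 of 249 (19.3%), nuclear long noncoding RNAs 20 of 258 (7.75%), and the large chromatin and ubiquitin genes 112 of 2843 (3.94%), with Setd5 at 10 of 188. Of the 6 small structural RNAs listed, Rmrp and Terc had a site inside the gene body, and both were recurrent. A read beginning on the first base of a gene has its site 1 nt outside the gene, and such sites are not in the counts of these lists. Over all genes 4.79% of the genic sites recurred, with a median over genes of 0. The lists were drawn up with earlier results of these data known, so these counts are descriptions.

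The recurrent sites had higher noXL scores, a description since these lists chose them. The median was 8.47 (quartiles 3.16 and 25.8) in ESC noXL, against 4.04 (1.98 and 8.11) for the others. When the ESC noXL sites were split by score into 10 classes of equal size, the recurrent share was 3.26% to 4.84% in the lower 9 and 20.1% in the top one. At the highest score stood 96 recurrent and 115 other sites. Where the base was the same in both lists, the ESC and NPC scores ranked alike (Spearman's rho 0.637 over 3762 sites), and less so 1 to 5 nt apart (0.236 over 4829). Sites of a gene share its abundance, so these are not independent points.

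The 4 UV lists played no part in the choice, and the recurrent sites returned in them far more often than the others. In ESC WT 4949 recurrent sites had a site within 5 nt (57.6%, 56.6 to 58.6), against 15.0% of the others and 17.3% of all ESC noXL sites, a difference of 42.6 percentage points (41.5 to 43.6). In ESC ZF1 the shares were 52.3% and 9.66%, with 12.0% of all sites, a difference of 42.6 points (41.6 to 43.7). In NPC WT they were 48.5% and 7.91%, with 10.1% of all sites, a difference of 40.6 points (39.6 to 41.7). In NPC ZF1, the shortest UV list, they were 30.9% and 4.08%, with 5.53% of all sites, a difference of 26.8 points (25.8 to 27.8). After the shifts the recurrent sites returned at 3.69%, 2.05%, 2.03% and 1.28% in the same order, and the others at 4.07%, 2.16%, 1.76% and 1.22%. No UV site lay within 1000 nt on the strand for 6.19% (ESC WT), 8.08% (ESC ZF1), 8.81% (NPC WT) and 16.5% (NPC ZF1) of the recurrent sites, against 14.4%, 20.0%, 25.8% and 32.1% of the others. Most returns were at the identical base, 46.5% in ESC WT against 5.30% of the others.

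A site of at least 1 UV list was found at 5968 recurrent sites (69.5%), against 25.2% of the others and 27.6% of all ESC noXL sites, and a site of all 4 at 2053 (23.9%), against 924 others (0.614%) and 1.87% of all. Of the 2977 ESC noXL sites that returned in all 4 UV lists, 69.0% were thus recurrent. The next most frequent patterns among recurrent sites were the 3 lists without NPC ZF1 (1302 sites) and ESC WT alone (553). No UV list had a site at 2623 recurrent sites (30.5%), against 74.8% of the others.

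The higher return was also seen after weighting for score or gene and within each class. With the other sites weighted to the score classes of the recurrent ones the difference was 39.3 points in ESC WT and 26.2 in NPC ZF1, and with weights to their genes 34.8 and 18.4. Away from transcript starts and small RNAs, a comparison chosen after the data were seen, it was 27.9 points in ESC WT, 27.8 in ESC ZF1, 24.6 in NPC WT and 16.4 in NPC ZF1, and with recurrence within 50 nt 16.6, 15.5, 15.9 and 9.99. On chromosome 11, which held 995 of the recurrent sites, the return was 53.8% in ESC WT and 43.6% in ESC ZF1, against 58.1% and 53.4% elsewhere. The other sites of chromosome 11 returned in 15.1% and 7.77% of cases, against 15.0% and 9.93% elsewhere. Chromosomes 6, 8 and 16 had a lower return of recurrent sites in ESC WT (46.4%, 52.4% and 50.8%).

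By class, recurrent sites at small RNAs returned in 97.0% (ESC WT), 96.3% (ESC ZF1), 96.3% (NPC WT) and 86.5% (NPC ZF1) of cases, against 65.8%, 60.4%, 50.997% and 35.9% of the other sites of that class. At transcript starts the shares were 93.8%, 87.9%, 86.4% and 48.5%, against 64.9%, 54.4%, 45.5% and 13.8%. In exons away from starts and small RNAs they were 35.7%, 26.5%, 27.6% and 14.1%, against 16.5%, 9.42%, 9.38% and 5.24% of the other sites of that class. In such introns they were 36.5%, 34.4%, 24.3% and 15.95%, against 7.35%, 4.65%, 2.64% and 1.71%. Intron starts returned in 41.6% and 38.7% in the ESC lists and in 20.8% and 12.2% in the NPC lists, against 21.3%, 16.6%, 7.70% and 3.75% of the other intron starts. The 30 recurrent sites in histone genes returned in 93.3%, 86.7%, 86.7% and 20.0%, against 40.7%, 20.4%, 35.2% and 9.26% of the other sites there.

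**Figure D4:**
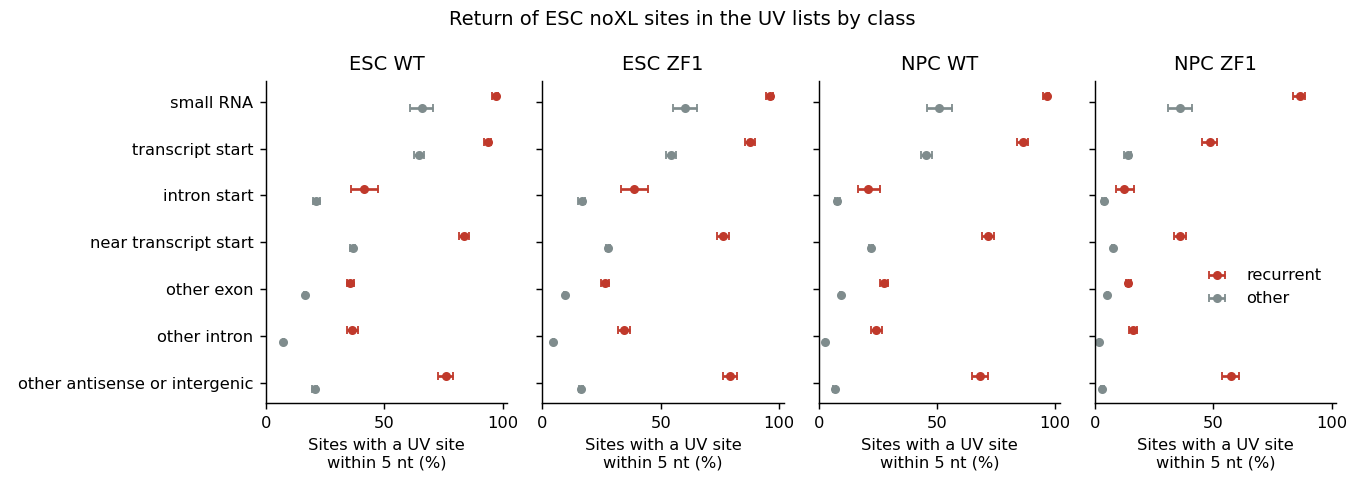
Share of ESC noXL sites with a site of the named UV list within 5 nt in percent (x axis), by class of position (y axis), for recurrent (red) and other sites (grey), with 95% Wilson intervals as error bars. In every class and list shown the recurrent share was the higher one, from 97.0% at small RNAs in ESC WT to 12.2% at intron starts in NPC ZF1.

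Return rose with the noXL score and was lower at the highest score in ESC WT, ESC ZF1 and NPC WT. Recurrent sites with a score below 5 returned in ESC WT in 37.7% of cases (36.0 to 39.4), those from 50 to 100 in 97.8% and those from 100 to 200 in 98.3% (96.4 to 99.2). At the highest score, where 96 recurrent sites stood, only 30.2% returned in ESC WT (21.9 to 40.0), 36.5% in ESC ZF1 and 52.1% in NPC WT. In NPC ZF1 it was 82.3% there (73.5 to 88.6), beside 79.2% from 100 to 200 and 93.2% from 400 up to the highest score. For 53 of these 96 sites ESC WT had no site at all within 1000 nt on the strand, and for 56, 45 and 10 of them ESC ZF1, NPC WT and NPC ZF1 had none. From 100 to 200 it was 6 of 355 in ESC WT. The 96 sites stood in 46 runs, of which 19 returned in ESC WT, 24 in ESC ZF1, 34 in NPC WT and 41 in NPC ZF1. By class 63 of the 96 were intergenic or antisense, 19 at small RNAs and 13 in introns. Whether reads at the 63 came from RNAs encoded elsewhere in the genome was not tested.

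Whole neighbourhoods were empty at some of these loci. Eif4a2, a translation initiation factor gene whose introns hold snoRNAs, had 15 ESC noXL sites, 11 of them recurrent, and all 11 returned in NPC WT and 8 in NPC ZF1. In ESC WT and ESC ZF1 none of the 11 returned, and the nearest sites of those lists on the strand were 173471 and 235629 nt away. Snord13, Rmrp, the RNA of RNase MRP, and the adhesion receptor gene Cd44 were empty in other combinations of lists. Snord13 scored 708 in ESC noXL, NPC noXL and NPC ZF1, but its nearest ESC WT and ESC ZF1 site was 9307 nt away and its nearest NPC WT site 8408 nt. Rmrp scored 708 in ESC noXL and in NPC ZF1, and its nearest site was 3199 nt away in ESC WT, 3342 nt in ESC ZF1 and 3841 nt in NPC WT. Cd44 had 3 recurrent sites that returned in ESC ZF1, NPC WT and NPC ZF1, and its nearest ESC WT site was 192458 nt away. The highest-ranked Cd44 site lay in an intron, 71887 nt from the nearest annotated transcript start. The cause of these gaps was not tested, and whether sites there were not called or are missing from the lists as used here is not known, which limits what the returns at the highest score mean.

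**Figure D5:**
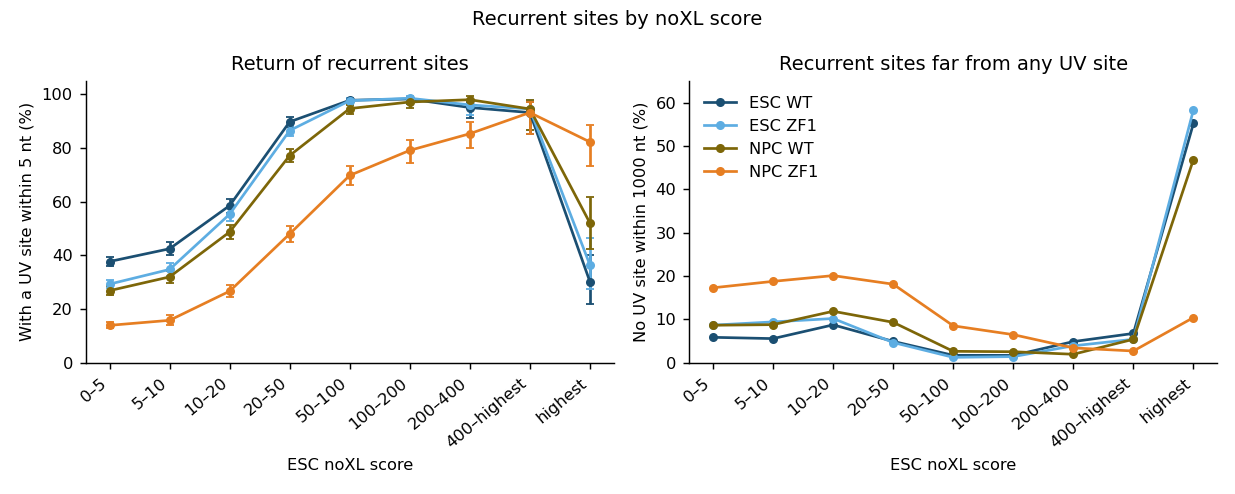
Share of recurrent sites with a UV site within 5 nt (left, with 95% Wilson intervals) and with no UV site within 1000 nt on the strand (right), in percent (y axes), by ESC noXL score (x axis), with 1 line per UV list. Return in ESC WT rose from 37.7% to 98.3% and was 30.2% at the highest score, where 55.2% of the recurrent sites had no ESC WT site within 1000 nt.

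Outside genes a few stretches held many recurrent sites. Whether reads in these stretches came from RNAs encoded elsewhere in the genome was not tested. On the minus strand of chromosome 6, 12 recurrent sites lay between 49236540 and 49236560, and none of them had a site in any UV list. On the minus strand of chromosome 9, 12 lay between 3258911 and 3258926, and each had a site in at least 1 UV list. On the minus strand of chromosome 1, 11 lay between 102628292 and 102628309, and 5 of them had none. On the plus strand of chromosome Y, 14 lay between 90720670 and 90737624, all with a site in at least 1 UV list, and the 5 of a stretch on chromosome 18 had one in all 4. Chromosome Y held 107 ESC noXL sites, 33 of them recurrent (30.8%), the highest share of any chromosome, where the other 20 lay between 4.55% and 7.07%. The highest-ranked positions present in all 4 UV lists included 5 intergenic sites beside Rspo1, Gm22513 and 3 Hspa8 snoRNAs. The intergenic site at 66368475 on chromosome 15 had the adapter letters GATCGGAA in its window. Of the 5, the site at 90395187 on chromosome 2 and the site at 4136308 on chromosome X had the score of 708 in all 6 lists.

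Seen from the UV lists, recurrent positions were a small share of all sites and a larger one of the 1000 highest-scoring sites. Within 5 nt of a recurrent site lay 1.83% of the ESC WT sites, 2.58% of ESC ZF1, 2.43% of NPC WT and 1.55% of NPC ZF1. Among the 1000 highest-scoring sites of each list they were 61.9% (58.9 to 64.9), 77.1% (74.4 to 79.6), 64.0% (61.0 to 66.9) and 60.7% (57.6 to 63.7). Of the sites at the highest score itself they were 61 of 141, 78 of 129, 46 of 82 and 37 of 71. Of the 1000 highest-scoring sites of each list, a further 8.10% to 9.70% lay near other ESC noXL sites only. The UV sites near recurrent positions were uridine in 29.3% of cases in ESC WT, 26.5% in ESC ZF1, 31.5% in NPC WT and 30.2% in NPC ZF1. Near other ESC noXL sites uridine stood under 47.8%, 39.0%, 53.7% and 52.6% of UV sites, and away from all ESC noXL sites under 61.4%, 50.02%, 65.4% and 59.2%. UV sites at recurrent positions thus had the lowest uridine share of the 3 kinds in each list. A UV site at the identical base carries the base of the recurrent noXL site by construction, so this share is in part fixed by the match.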

How the data were processed

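iCLIP2 reads of 23 libraries in 6 groups were processed by the authors, who demultiplexed and trimmed them with Flexbar, mapped the reads to the mm10 build (STAR), collapsed duplicates by their molecular identifiers (UMI-tools), merged the replicate alignments of each condition and called sites with PureCLIP. The deposited lists hold 1-nt sites with a PureCLIP score, and versions were not given in the sources used here. The read depth behind a site is unknown, and scores are not scaled to depth. The labels do not tie libraries to separate cultures.

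The autosomes and the X and Y chromosomes were analysed, and 243 ESC noXL sites elsewhere were left out. The members and gene lists were chosen with earlier results of these data known. The read start was taken 1 nt downstream of the site. Transcript parts, genes and gene types came from GENCODE M21, and tRNA genes from RefSeq. Coding exons took precedence over the 3′ and then the 5′ UTR, exons over introns, and protein-coding over other genes within a part. Bases and repeat masking came from the RefSeq GRCm38.p6 assembly, whose chromosomes held all sites within their lengths. Classes were assigned in this order: small RNA within 5 nt, transcript start within 2 nt, intron start, transcript start within 50 nt, other exon, other intron, other antisense or intergenic. Shares have 95% Wilson intervals and differences 95% Newcombe intervals, and weighted shares use an effective number of sites. The functions were tested on simulated data with known answers. Named were the 10 genes with most recurrent sites, the 5 with the highest recurrent share among genes with at least 20 ESC noXL sites, the genes of the 10 recurrent sites with the highest summed score rank in both noXL lists and of the 10 such sites found in all 4 UV lists (at most 1 site per 8 nt run, ties by chromosome and position), and list genes with at least 5 recurrent sites, of which some are not reported here. Primer and adapter letters came from the study's oligonucleotide list. Other genes, among them those of class examples and of empty neighbourhoods, were named after their values were seen. Analyses used Python 3.11.15 with numpy 2.4.6, pandas 2.3.3 and matplotlib 3.10.9.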

Additional observations from a re-analysis of the deposited data

How the results depend on the processing

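The 9 differences between recurrent and other sites were recomputed under 112 alternatives in all, and 109 kept the direction and an interval without 0. The coding exon share was the exception. Its difference of -5.27 points became 9.25 with recurrence within 50 nt and 5.31 away from transcript starts and small RNAs, the latter chosen after seeing the data, and -1.26 with an interval that held 0 when other sites were weighted to the genes of the recurrent ones. The number of recurrent sites moved from 8591 to 3762 at the same position, 29037 within 50 nt and 5061 with scores of at least the median over all lists. It was 7231 with 1 site per run, where runs were taken over all ESC noXL sites and not over the recurrent ones alone. From the NPC side it was 7954, without chromosome 11 7596, and without the 10 genes with most recurrent sites 8420. Over all alternatives the return difference ranged from 16.6 to 61.3 points in ESC WT, 15.5 to 63.4 in ESC ZF1, 15.9 to 58.1 in NPC WT and 9.99 to 42.0 in NPC ZF1, the difference at RNA 5′ ends from 2.05 to 12.4, that of genes other than protein-coding ones from 0.482 (within 50 nt) to 6.99 (same position), the uridine difference from -5.55 to -2.18 and the intron difference from -22.0 to -14.0. Weighting the gene type share to the same genes gives no difference by construction and was not run. The cause of the turn in the coding exon share was not tested. No paired analysis was possible because each deposited list pools the replicates of its group, which also means that none of them could be left out. The read depth behind each site is unknown, so its part in a missing return was not tested.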
